A study of Mus musculus with 4 samples.

Results

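The miRNAs described here are those that mark the cells of the blood vessel wall. They are 10 mature arms, fixed by name, of 1038 known miRNAs in the deposited table: mmu-miR-126a-3p and mmu-miR-126a-5p of endothelial cells, mmu-miR-143-3p, mmu-miR-143-5p, mmu-miR-145a-5p and mmu-miR-145a-3p of smooth muscle cells and pericytes (the mural cells), and mmu-miR-199a-5p, mmu-miR-199a-3p, mmu-miR-199b-5p and mmu-miR-214-3p, which are abundant in mesenchymal cells. All 10 were found in the table. Small RNA, selected by size on a gel, was sequenced from the medial prefrontal cortex of male mice, labelled C57BL/6 and named C57BL/6J in the study's methods. The control group and the group under chronic unpredictable mild stress (CUMS) had 2 libraries each, from mice of the same strain with no transgene. The study calls these mice juvenile, as they were at its start. Tissue was taken after adaptation, weeks of CUMS or control life and the behaviour tests, when they were older. The CUMS mice lived in social isolation under changing stressors for weeks, and those sequenced were animals whose sucrose preference, Y-maze and forced swimming tests had all changed, so resilient mice are not represented. RNA was extracted from each mouse, but the labels do not tie a library to an animal, and p-values measure the spread between these libraries. The question was which miRNAs differ between depression-like and control mice.

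A miRNA is cut from a hairpin precursor whose 2 sides give a 5p and a 3p arm, and one arm is usually loaded into Argonaute as the guide that represses mRNAs through its seed, bases 2 to 8. miR-126 sits within Egfl7, a gene of endothelial cells, and is known for keeping vessels intact and for tuning growth factor signalling. miR-143 and miR-145 are made from 1 primary transcript and are known for the contractile state of vascular smooth muscle, while miR-199a and miR-214 are made from 1 long noncoding RNA and are known from mesenchyme and fibroblasts. Brain capillaries are lined by endothelium and wrapped by pericytes, so bulk cortex carries RNA of both. In such bulk tissue, fewer cells of a type and less RNA per cell cannot be told apart.

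The mature sequences below, from RefSeq on GRCm38.p6, are shown because they decide which arms can be counted apart; capitals mark the seed. Of the 10 arms, 4 are given.
mmu-miR-126a-3p: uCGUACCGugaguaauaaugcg
mmu-miR-199a-5p: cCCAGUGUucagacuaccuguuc
mmu-miR-199a-3p: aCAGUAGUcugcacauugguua
mmu-miR-199b-3p: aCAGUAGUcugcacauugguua
mmu-miR-214-3p: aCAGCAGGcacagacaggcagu
The 3p arms of miR-199a and miR-199b are identical over all 22 nt, and no 2 of the 4 printed arms of the list share a seed. In the reference the seed of miR-214-3p recurs only in miR-761, which is not listed in the table. The remaining arms, miR-126a-5p, both arms of miR-143 and of miR-145a, and miR-199b-5p, are given by name.

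The hairpins show the same point for their precursors, with the mature 3p arm in capitals.
Mir126a: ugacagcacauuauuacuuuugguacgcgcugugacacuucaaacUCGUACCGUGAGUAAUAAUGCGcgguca
Mir199a-1: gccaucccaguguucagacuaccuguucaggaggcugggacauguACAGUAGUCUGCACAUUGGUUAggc
Mir199a-2: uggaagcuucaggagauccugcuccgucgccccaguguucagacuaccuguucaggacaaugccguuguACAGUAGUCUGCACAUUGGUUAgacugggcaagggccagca
Mir199b: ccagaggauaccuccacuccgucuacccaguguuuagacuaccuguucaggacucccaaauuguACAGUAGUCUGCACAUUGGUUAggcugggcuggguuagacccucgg
Counted from 1 at the 5′ end of miR-199a-5p, the matching stretch of the Mir199b hairpin differs by 1 base, C10U, and those of Mir199a-1 and Mir199a-2 by 0. Reads were matched without mismatch, so 5p reads that cover this base can separate the genes, and 3p reads cannot. The table lists miR-199a-3p and miR-199b-3p with equal reads in each of the 4 libraries, and the values of miR-199a-3p below are those of both.

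In GENCODE M21 on GRCm38, the Mir126a precursor lies on chromosome 2 from 26591357 to 26591429 on the plus strand, inside Egfl7 on the same strand. It is intronic in 8 of the 9 Egfl7 transcripts that span it and overlaps an exon of 1. Mir199b, also on chromosome 2, spans 32318460 to 32318569 and runs against the strand of the dynamin gene Dnm1, within an intron. Mir199a-1, on chromosome 9 from 21496495 to 21496564, is placed likewise in Dnm2. Mir199a-2, on chromosome 1 from 162217814 to 162217923, and Mir214, from 162223368 to 162223477, both overlap exons of the noncoding RNA Dnm3os, which runs against an intron of Dnm3, and 5444 bases separate them. The position of the other precursors is not reported here.

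The libraries held 10533646 and 10783592 miRNA reads in control and 10427625 and 9589323 in CUMS. They are called a and b within each group, since the deposited group means from which their reads were recovered do not tell the replicate number. A floor of 3 reads equals a CPM (reads scaled to a common library total) of 0.278 to 0.313, and floors and Wilson intervals here cover counting error only. Control library b stood apart: the 8 epithelial miRNAs of a marker list, led by miR-182-5p, took 9.32% of its reads, against 0.0393% to 0.0721% in the other 3 libraries, and 2 of the 8, miR-96-5p and miR-200c-3p, had 0 reads in at least 1 library. Neuronal miRNAs, checked as the tissue's own, took 6.70% to 9.43% of the reads. Striated muscle miRNAs stood at 0.00194% to 0.00323% with miR-1a-3p and miR-133b-3p at 0 in some libraries and miR-206-3p not listed. The choroid plexus pair had 0.124% to 0.204%, white blood cell and microglial miRNAs had 0.0386% to 0.0549%, and oligodendrocyte miRNAs had 0.0400% to 0.0470%. The summed levels of the choroid plexus, striated muscle and oligodendrocyte lists were lower in both CUMS libraries than in both control libraries, at 0.734, 0.691 and 0.864 times the control mean. Those of the epithelial, neuronal and white cell lists overlapped. Of the 719 miRNAs tested below, 33.8% separate the groups in either direction. Each of the separated sums came mostly from 1 miRNA: miR-204-5p, miR-133a-3p and miR-338-3p in turn. Among the other members, miR-211-5p, miR-1a-3p and miR-133b-3p overlapped between the groups, and miR-219a-5p separated. The part of these other cells in the results below was not tested.

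The vessel wall miRNAs together made up 3.03% and 2.08% (control) against 2.23% and 3.04% (CUMS) of all reads. The groups overlapped, and the summed normalized level in CUMS was 0.984 times that in control. Nearly all of it was miR-143-3p, which gave 93.5% to 95.3% of these reads in a library and was the 11th most abundant miRNA of the table. Levels are given as normalized counts, that is reads divided by the size factor of the library, with no scaling by length. A read may be counted under more than 1 name, as the equal reads of miR-199a-3p and miR-199b-3p show, and shares of all reads include such repeats. In order of level, miR-143-3p was followed by miR-126a-5p at rank 70, miR-126a-3p, miR-145a-3p at rank 201, miR-199a-3p at rank 246, miR-145a-5p at rank 276 and miR-199a-5p at rank 445. miR-143-5p, miR-214-3p and miR-199b-5p were under 10 reads in every library. The ranges of miR-143-3p, miR-126a-5p, miR-126a-3p, miR-145a-3p and miR-199a-3p over the 4 libraries did not overlap each other, those of miR-199a-3p and miR-145a-5p did, and the order among the 3 lowest arms is within their spread.

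**Figure D1:**
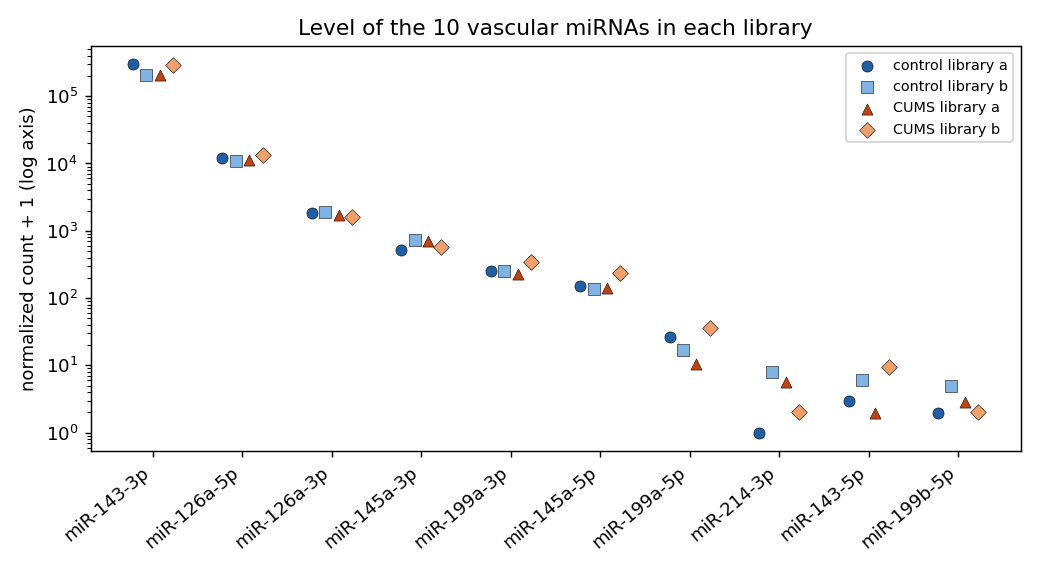
Normalized count plus 1, on a log axis, of each of the 10 vessel wall miRNAs (horizontal axis) in the 2 control libraries (blue) and the 2 CUMS libraries (orange), 1 point a library. Levels run from at least 204512 for miR-143-3p to under 10 for the 3 lowest arms, and the control and CUMS points overlap for every arm except miR-126a-3p, which overlaps when scaled to library totals.

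Neither arm of the endothelial miR-126a passed the test between the groups. miR-126a-3p, the arm commonly named as the guide, had normalized counts of 1810 and 1868 (control) against 1735 and 1589 (CUMS). Both CUMS values were below both control values, a separation that 33.8% of the 719 miRNAs tested also show, and it was the only one of the 9 vessel wall arms tested that separated. The separation depended on the size factors: scaled to library totals it had 175.6 and 173.3 CPM (control) against 176.7 and 156.4 CPM (CUMS), so CUMS library a was highest, and the fitted log2 difference was -0.069. On that scale 0 of the 9 arms separated, against 34.5% of the 719. The library totals include the epithelial miRNAs, 9.32% of the reads of control library b, which lower the CPM of its other miRNAs. Its log2 difference (CUMS minus control) was -0.15 (standard error 0.15, 95% interval -0.52 to 0.22, adjusted p = 0.886, limma-trend with Benjamini-Hochberg adjustment over the 719). miR-126a-5p, the partner arm, had 11883 and 10886 (control) against 11285 and 13174 (CUMS). Its highest and lowest CUMS values enclosed a control value, and the log2 difference was 0.10 (interval -0.26 to 0.46). The fitted differences of these arms have opposite signs, and each interval includes 0. Without control library b they were -0.13 for miR-126a-3p and 0.03 for miR-126a-5p.

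Among the mural cell miRNAs, the libraries of 1 group differed more than the groups did. miR-143-3p, the guide arm linked to smooth muscle contractility, had 297462 and 210103 (control) against 204512 and 293168 (CUMS). One library of each group was high and one was low, with a fold of 1.42 within control and 1.43 within CUMS, whereas the group means differed by a fold of 0.981. In counting error alone the control libraries were far apart, with Wilson 95% intervals of 28769 to 28971 CPM and 19409 to 19574 CPM. Its log2 difference was -0.03 (standard error 0.24, interval -0.61 to 0.55, limma-trend adjusted p = 0.966), and it turned to 0.048 with library totals in place of size factors. Without control library b it was -0.29, and without control library a 0.21. The passenger arm miR-143-5p had 2 and 5 reads (control) against 1 and 8 (CUMS).

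miR-145a-5p, the arm known for the smooth muscle programme, had normalized counts of 151 and 137 (control) against 142 and 231 (CUMS). CUMS library b was the high one, and CUMS library a lay between the control libraries. The log2 difference was 0.33 (standard error 0.29, interval -0.37 to 1.04, limma-trend adjusted p = 0.886). It rested on CUMS library b: without it the difference was -0.010, and without CUMS library a it was 0.67, with an unadjusted limma p of 0.0451 and an adjusted p of 0.550. Without control library b it was 0.26. The opposite arm miR-145a-3p had 518 and 724 (control) against 705 and 577 (CUMS), with overlapping groups and a log2 difference of 0.06 (interval -0.50 to 0.62), or 0.29 without control library b.

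Apart from miR-199a-3p, at rank 246, the mesenchymal miRNAs had few reads in this cortex. miR-199a-3p, with its identical miR-199b copy, had normalized counts of 247 and 248 (control) against 228 and 344 (CUMS). The control libraries were nearly equal, and the CUMS libraries lay on either side of them. The log2 difference was 0.18 (standard error 0.26, interval -0.44 to 0.79, limma-trend adjusted p = 0.914), -0.12 without CUMS library b and 0.17 without control library b. The 5p arm miR-199a-5p had 26 and 16 reads (control) against 10 and 33 (CUMS), with both extremes in CUMS. The Dnm3os neighbour miR-214-3p had 0 and 7 reads (control) against 5 and 1 (CUMS), where 0 of 10533646 reads allows up to 0.285 CPM, and miR-199b-5p had 1 and 4 against 2 and 1. At these numbers no difference between the groups was detectable.

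Across the list, 0 of the 9 tested arms passed an adjusted p under 0.05, as did 0% of all 719 miRNAs, of which 28 had an unadjusted p under 0.05 by limma-trend. edgeR and DESeq2 also gave 0, with 30 and 24 miRNAs at an unadjusted p under 0.05. By the study's thresholds, a fold above 1.5 with an unadjusted p under 0.05, 0 of the 9 passed against 3.34% of the 719. Fold and p were here taken from limma-trend, where the study used DESeq. miR-199b-5p did not reach the filter of 5 reads in a library; miR-214-3p and miR-143-5p reached it through 1 library of each group, at 5 to 8 reads. Of the 9 fitted differences 6 were above 0 and 3 below, with a median of 0.06, beside 0.005 over the 719. For 5 of the 6 arms with over 100 reads in every library, the larger fold of normalized counts within a group exceeded the fold between the group means; the exception was miR-126a-3p. The 95% interval of the fold lay inside 0.5 to 2 for 5 of these 6 arms and reached 2.06 for miR-145a-5p. For miR-199a-5p, miR-214-3p and miR-143-5p the intervals ran to 2.76, 11.1 and 6.00, so changes up to these folds lay within them. For a single arm, 2 libraries against 2 cannot give a two-sided exact permutation p below 0.33.

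**Figure D2:**
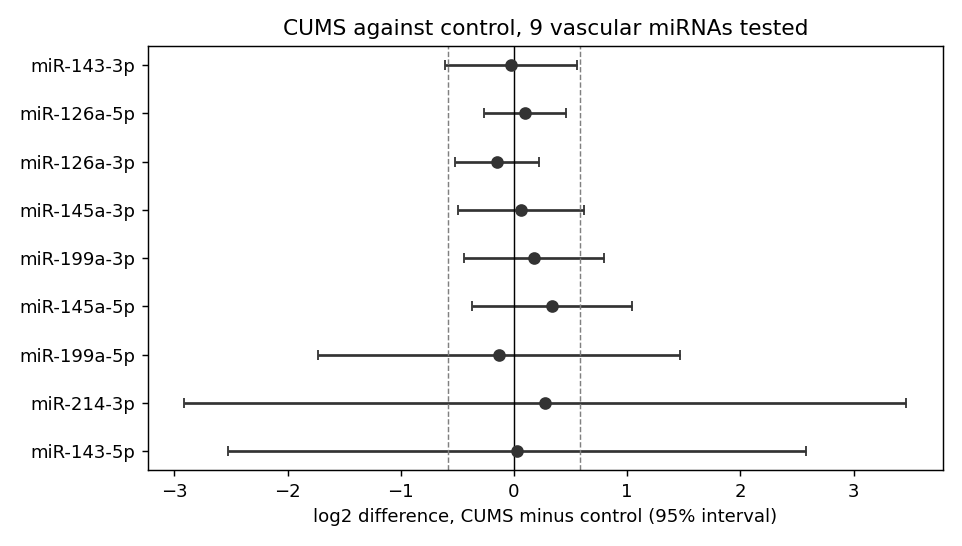
Log2 difference between CUMS and control (horizontal axis, points) with its 95% interval from limma-trend (bars) for the 9 arms tested, ordered by control level. Dashed lines mark a fold of 1.5 either way; every interval includes 0, and the 3 arms with few reads have the widest.

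The more abundant arm of each precursor was the same in all 4 libraries, while its share varied between libraries of 1 group. From miR-126a, the 3p arm gave 13.2% and 14.6% of the reads of both arms in control and 13.3% and 10.8% in CUMS. The 5p arm was therefore counted 5.83 to 8.29 times as often as the 3p arm in every library. From miR-145a, the 3p arm likewise outnumbered the 5p arm, with 77.5% and 84.1% (control) against 83.2% and 71.4% (CUMS). From miR-143 nearly all reads came from the 3p arm, at least 99.997% in every library. miR-199a gave 90.7% and 93.9% from its 3p arm in control and 96.0% and 90.8% in CUMS, where the 3p reads include those of Mir199b. The shares of the groups overlapped for each of these 4 precursors. The Wilson intervals of libraries a and b did not meet within either group for miR-126a and miR-145a. For miR-145a they were 74.2% to 80.5% and 81.5% to 86.4% within control, and 80.6% to 85.5% and 68.1% to 74.5% within CUMS. For miR-126a they were 12.7% to 13.8% and 14.0% to 15.3% within control, and 12.8% to 13.9% and 10.3% to 11.3% within CUMS. These are shares of counted reads.

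**Figure D3:**
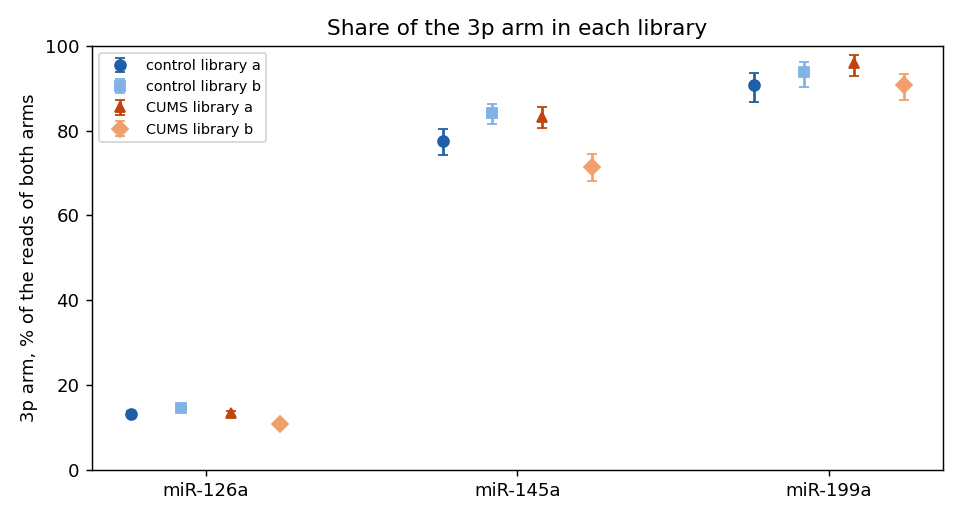
Share of the 3p arm in the reads of both arms (vertical axis, percent) of miR-126a, miR-145a and miR-199a in each of the 4 libraries; bars are Wilson 95% intervals. The 3p share of miR-126a stays under 15% in all libraries and those of miR-145a and miR-199a above 70%.

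The arms of miR-143 and miR-145a, which share a primary transcript, differed in how they varied over the libraries. miR-143-3p was high in control library a and CUMS library b, whereas miR-145a-3p was low in these and high in the other 2. miR-145a-5p was closer to miR-143-3p, with its highest value in CUMS library b and its next in control library a. The ratio of miR-143-3p to miR-145a-3p was 574 and 290 (control) against 290 and 508 (CUMS). The ratio of miR-143-3p to miR-145a-5p was 1975 and 1534 (control) against 1438 and 1269 (CUMS), with both CUMS values below both control values. This ratio was not tested, and 33.8% of the 719 miRNAs tested separate in their levels. Mural to endothelial, the ratio of miR-143-3p to miR-126a-5p was 25.03 and 19.3 (control) against 18.1 and 22.3 (CUMS). To miR-126a-3p the ratio was 164 and 112 (control) against 118 and 184 (CUMS), and the groups overlapped for both arms. In normalized counts, CUMS library b was the highest of the 4 for 5 of the 10 arms, control library b for 4, control library a for 1 and CUMS library a for 0. In CPM, with the epithelial reads of control library b kept in its total, these numbers were 5, 2, 1 and 2. The 5 red cell miRNAs listed, used to mark blood in the tissue, were together also highest in CUMS library b. They took 2.65% of its reads against 2.14% to 2.33% in the other libraries, and their summed level overlapped between the groups. Nearly all of that sum came from miR-486a-5p and miR-486b-5p. Their reads were nearly equal in each library, so the same reads may be counted under both names. Of normalized list sums of 228594 to 269669, miR-451a gave 312 to 420, also highest in CUMS library b. The miR-144 arms of the list were highest in CUMS library b too. There miR-144-3p had 156 reads, against 63 to 97 in the other libraries. The normalized count of miR-144-5p was 129 there, against 77.2 to 99.8 in the other libraries. Whether the share follows the amount of blood was not tested. The part of the red cell miRNAs in the vessel wall values was not tested.

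**Figure D4:**
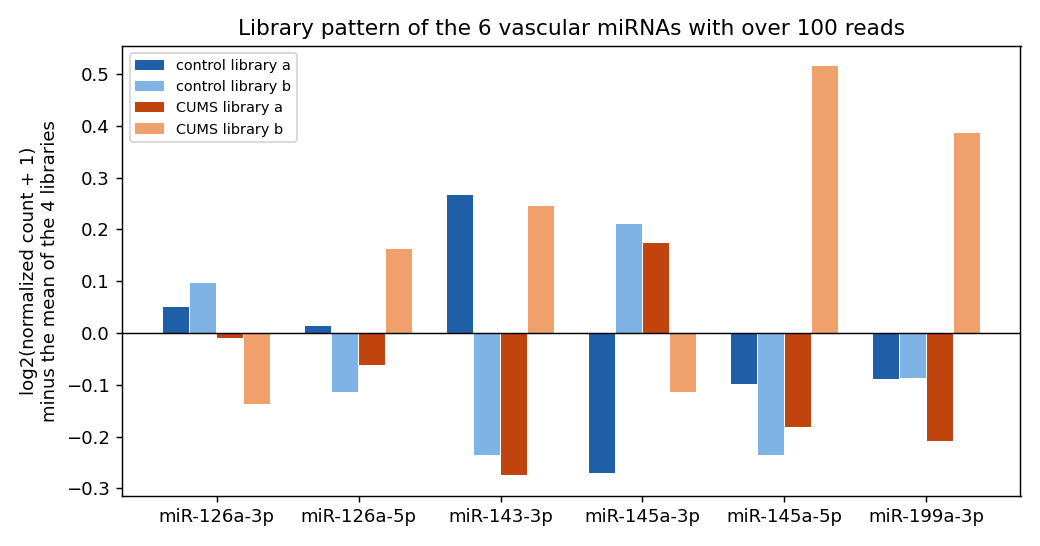
Log2(normalized count + 1) of the 6 arms with over 100 reads in every library, each minus its own mean over the 4 libraries (vertical axis), with 1 bar a library. CUMS library b stands highest for miR-126a-5p, miR-145a-5p and miR-199a-3p, and miR-143-3p and miR-145a-3p show opposite signs in every library.

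Other miRNAs with patterns like these were sought among 353 miRNAs whose mean normalized count reached 50, by the root mean square difference of centred log2 values over the 4 libraries, as a description. For miR-126a-3p the nearest were miR-486a-3p at 0.030, miR-433-3p at 0.043 and miR-485-5p at 0.043, where the median of the 353 was 0.196. For miR-143-3p they were let-7b-5p at 0.048, miR-135a-5p at 0.053 and miR-679-5p at 0.056 (median 0.310). For miR-199a-3p, apart from its copy, they were miR-154-5p at 0.060, the red cell miRNA miR-451a at 0.061 and miR-144-5p at 0.090 (median 0.276). miR-451a had normalized counts of 325 and 315 (control) against 312 and 420 (CUMS).

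A list of 17 further miRNAs studied in vessel wall cells, most of them common to many cell types, was measured in the same way. By limma-trend, 0 of the 17 passed an adjusted p under 0.05, 8 differences were above 0 and 9 below, and the median was -0.04. Their summed level, most of it from miR-100-5p and miR-27b-3p, was 355500 and 374587 (control) against 388166 and 385018 (CUMS). Both CUMS sums were above both control sums, at 1.06 times the control mean. By the limma-trend p, the study's criteria were met by 1 of the 17 (5.88%, beside 3.34% of the 719), miR-10a-5p, with normalized counts of 4158 and 3315 (control) against 1662 and 3028 (CUMS) (log2 difference -0.73, interval -1.44 to -0.01, limma-trend adjusted p = 0.835). Both CUMS values were below both control values, and CUMS library a was the low one. The widest positive difference was that of miR-503-5p, which had 9 reads in CUMS library b and 0 in the other 3 libraries. miR-210-3p, known from hypoxia, had 212 and 219 (control) against 262 and 371 (CUMS), a log2 difference of 0.53 (interval -0.05 to 1.11). The groups did not overlap for 5 of the 17, or 29.4%, beside 33.8% of the 719. Of 5 other arms and copies of the member precursors, miR-126b-3p, miR-126b-5p and miR-145b are not listed, miR-214-5p had 1 read in CUMS library a, and miR-199b-3p is the copy described above.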

How the data were processed

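The 2 control and 2 CUMS small RNA libraries of mouse cortex were grouped by their titles. The authors matched cleaned, size-limited reads to miRBase precursors without mismatch, counted them per mature miRNA (Bowtie, DESeq and mm10 are named per the labels; versions and the miRBase release are not given in the sources used here), and deposited 1 table. Its signal columns are the authors' mean normalized count of each group, reads divided by DESeq size factors. The columns carry no group name; the study prints their values under its control and CUMS headings. Deposited fold changes and p-values of the authors' comparison were not used.

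Library reads were worked out from the deposited means, taken as sums of whole multiples of 2 steps. All 1038 values of each group, 100%, came out whole, with a largest relative residual of 4.59e-15. For 2 of the control values and 0 of the CUMS values, a second whole pair fitted nearly as well. Size factors recomputed from these reads (median of ratios over 650 miRNAs) were 1.02, 1.00, 1.06 and 0.944. Recovery was tested on simulated data, and 100% of pairs were found.

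limma 3.58.1 (trend) was run on log2(normalized count + 1) of the 719 miRNAs that reached 5 reads in any library, with Benjamini-Hochberg adjustment over all of them. edgeR 4.0.16 (quasi-likelihood, TMM) and DESeq2 1.42.0 on the recovered reads were alternatives, with other pseudocounts, scalings and filters and each library left out (R 4.3.3). The limma, edgeR and DESeq2 fits were tested on simulated reads with known folds. Wilson intervals used scipy 1.17.1, in Python 3.11.15, and figures matplotlib 3.10.9. Named are the 10 arms, further arms of their precursors, 3 pattern neighbours of each leading arm, and from 17 other vessel wall miRNAs those past a criterion or at the extremes; miR-210-3p was added after its values were seen. Markers of other cells were listed by name. The members and lists were chosen with earlier results of these data known.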

Additional observations from a re-analysis of the deposited data

How the results depend on the processing

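No paired analysis was possible because the columns of group means carry no replicate numbers, so the recovered libraries could not be paired. The count of vessel wall miRNAs at an adjusted p under 0.05 was 0 under every alternative run: the pseudocounts, scalings, filters, edgeR, DESeq2 and each library left out. Over all miRNAs it was 0 as well, except 7 without control library a, all 7 of them on the epithelial marker list (range 0 to 7 over the libraries left out). By a fold above 1.5 with an unadjusted p under 0.05 from limma-trend, 24 of all miRNAs passed, against 51 with no filter and 5 with a mean of at least 50. Leaving out a library gave 9 (without control library b) to 45 (without CUMS library a) over all miRNAs and 0 to 1 among the vessel wall miRNAs, where the 1 was miR-145a-5p without CUMS library a. The median log2 difference of the vessel wall miRNAs ranged from -0.08 to 0.22 with a library left out. The fitted log2 difference changed sign with a library left out for all of the 9 arms except miR-126a-3p (-0.22 to -0.08). Those ranges were -0.0070 to 0.20 for miR-126a-5p, -0.29 to 0.22 for miR-143-3p, -0.19 to 0.29 for miR-145a-3p, -0.010 to 0.67 for miR-145a-5p and -0.12 to 0.46 for miR-199a-3p. For the arms with few reads they were -1.02 to 0.75 for miR-199a-5p, -1.12 to 1.16 for miR-143-5p and -1.23 to 1.78 for miR-214-3p. Among the other alternatives, 8 of 69 values had the opposite sign: miR-143-3p with library totals (0.048), miR-143-5p with a pseudocount of 0.5 (-0.031) and with TMM factors (-0.0043), miR-214-3p with a pseudocount of 5 (-0.014), and miR-199a-5p (0.045 and 0.088) and miR-214-3p (-0.27 and -0.28) with edgeR and DESeq2. The cause was not tested. The deposited group means equal the means of the recovered libraries by construction, since the reads were worked out from those means. Scaled to library totals, which include the epithelial reads of control library b, the groups overlapped for miR-126a-3p (log2 difference -0.069). Depth limits the 3 arms under 10 reads, where the intervals of the 2 tested include changes of several fold.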
